A study of Mus musculus with 12 samples.

Results

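Nuclear RNA and cytoplasmic RNA of mouse myelocytes were compared for 104 mature miRNAs, read by TaqMan low-density array RT-qPCR (TLDA RT-qPCR). Myelocytes are the granulocyte precursors that lie between promyelocytes and granulocytes. On a TLDA card each miRNA is amplified in a well of its own, and the cycle threshold (CT) counts the cycles needed to reach a set fluorescence, so that less template gives a higher CT and 1 cycle means a 2-fold difference at full efficiency. The deposited table holds 593 numbered assays, 269 of which could be given a miRNA name, and the 104 miRNAs are those of them that had a CT under 30 in either myelocyte fraction.

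The bone marrow of C57BL/6 mice was sorted by flow cytometry into promyelocytes, myelocytes, granulocytes and LSK cells, which hold the stem cells and progenitors. No treatment or altered allele is given for any of the groups, and the age of the mice is not given in the sources used here. Each stage gave 1 whole cell, 1 cytoplasmic and 1 nuclear RNA sample, 12 in all, with 100 ng of RNA given for each by the labels, while the study describes its comparison of the fractions as one of cell equivalent volumes. The fractions were separated with the PARIS kit, and the study checked their purity with a snoRNA, Y1 RNA, Lmnb1 and Gapdh. There was therefore 1 nuclear and 1 cytoplasmic sample of myelocytes, each assay was read once, and the differences have no replicate check and no test. Equal RNA mass is not equal cell number, and the sources do not settle which of them the raw CT stand for, so a ratio below is the signal of the nuclear sample over that of the cytoplasmic sample as deposited. A single factor between mass and cells would shift all ratios of a stage alike and leave their order as it is, but it moves the value that stands for equal amounts.

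A miRNA is cut from its primary transcript in the nucleus by Drosha, exported as a hairpin precursor, and cut again by Dicer in the cytoplasm, where the mature strand is loaded into an Argonaute protein and represses mRNAs that pair with its seed. Mature miRNAs are therefore mainly known from the cytoplasm, although Argonaute proteins and mature miRNAs have been found in nuclei of several cell types. In the neutrophil lineage miR-223 is the best known miRNA, and miR-142 is abundant in most blood cells.

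The sequences that the results turn on follow first, from RefSeq on GRCm38.p6, which held a mature sequence for 87 of the 104. They are written 5′ to 3′, and capitals mark the seed, bases 2 to 8. The first set holds those of the miRNAs nearest to equal CT in both fractions that have an entry.
miR-706: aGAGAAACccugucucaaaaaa
miR-690: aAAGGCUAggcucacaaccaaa
miR-135a*: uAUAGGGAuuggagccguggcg
The mature miR-706 lies at chr6:120034290-120034311 on the minus strand and miR-690 at chr16:28599940-28599961 on the minus strand. The interval of miR-706 falls within that of the kinase gene Wnk1, and the interval of miR-690 within that of the growth factor gene Fgf12. The third, miR-135a*, is the 3′ arm of the miR-135a-1 hairpin and lies at chr9:106154179-106154200 on the plus strand, within the interval of Glyctk and of a long noncoding RNA gene, D030055H07Rik. No seed is shared among the 3.

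The next set holds miR-223 and miR-142-3p of the neutrophil lineage, then members of the miR-16 family and of the miR-17-92 and related clusters, which are compared below by seed and by cluster.
miR-223: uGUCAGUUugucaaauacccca
miR-142-3p: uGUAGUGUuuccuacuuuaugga
miR-16: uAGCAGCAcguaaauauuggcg
miR-15b: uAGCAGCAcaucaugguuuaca
miR-195: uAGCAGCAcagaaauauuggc
miR-19b: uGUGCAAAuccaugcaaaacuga
miR-19a: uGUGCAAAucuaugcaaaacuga
miR-17: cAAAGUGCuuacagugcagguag
miR-106a: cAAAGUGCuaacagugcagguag
miR-20a: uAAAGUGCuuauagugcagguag
miR-93: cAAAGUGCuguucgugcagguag
miR-92a: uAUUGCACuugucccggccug
The third set holds the 6 miRNAs that were undetermined in nuclear RNA, and miR-21 as an example of a late nuclear CT.
miR-106b*: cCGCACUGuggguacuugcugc
miR-425: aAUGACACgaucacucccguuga
miR-877*: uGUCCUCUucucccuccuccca
miR-27a*: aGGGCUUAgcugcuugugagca
miR-139-3p: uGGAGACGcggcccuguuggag
miR-10b: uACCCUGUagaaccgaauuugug
miR-21: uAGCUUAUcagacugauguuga

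Before the comparison, the sorted cells were checked against markers. Of 3 neutrophil lineage miRNAs, miR-223 had a CT of 17.6 in cytoplasmic, 22.3 in nuclear and 17.3 in whole cell RNA, the lowest of the 104 in cytoplasmic and whole cell RNA. Its lineage partner miR-142-3p followed at 21.97, 25.3 and 21.1, while the other arm of that hairpin, miR-142-5p, was later, at 28.6, 33.0 and 28.1. Of the other cell types, erythroid miR-486 was undetermined in both fractions but had a CT of 31.46 in whole cell RNA. Neuronal miR-124 was undetermined in all 3 samples and miR-9 in both fractions, with a whole cell CT of 37.7. The muscle miRNAs miR-206 and miR-1 were at 34.1 and 35.2 in cytoplasmic RNA, and miR-133b was determined in nuclear RNA alone (34.8). The lymphoid marker miR-150 had a CT of 25.3 in cytoplasmic and 29.8 in nuclear RNA, and miR-181a, of the same list, 29.5 and 35.5. Of 3 named epithelial miRNAs, miR-200c was under 30 in cytoplasmic RNA (28.9) while miR-203 and miR-200b were at 30.98 and 32.96. Of 7 named miRNAs of stem and progenitor cells, miR-126-3p (28.4) and miR-10b (29.8) were under 30 in cytoplasmic RNA, miR-126-5p, miR-125b-5p, miR-196b and miR-125a-5p were between 30.4 and 33.97, and miR-99b was undetermined. In bulk RNA, fewer cells of a type and less RNA per cell cannot be told apart, and the part of other cells in these values was not tested.

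All 104 miRNAs had a CT under 30 in cytoplasmic RNA, and 37 of them also had one in nuclear RNA. For the other 67 the rule itself put cytoplasmic RNA ahead, so their direction carries no information. The 37 were free to go either way, and the CT was lower in cytoplasmic RNA for all 37. Cytoplasmic RNA was at least 2-fold higher for 36 of the 37 and at least 10-fold higher for 25. Over all assays under 30 in both fractions, named or not, it was 37 of 45 (82.2%) at 2-fold and 25 of 45 (55.6%) at 10-fold. Among the 104, 103 were at least 2-fold higher and 83 at least 10-fold, beside 92.2% and 73.3% of all assays under 30 in either fraction. The named miRNAs make up most of those assays, so the shares are not independent of each other. Among the 12 unnamed assays, 7 were higher in nuclear RNA, which lowers the shares over all assays.

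The median nuclear minus cytoplasmic CT of the 37 was 3.64 cycles, a nuclear:cytoplasmic ratio of 0.0799 or a 12.5-fold lower level in nuclear RNA. The middle of the distribution was narrow, with quartiles of 3.24 and 4.31 cycles. The 29 of the 37 with CT given to 4 decimals lay between 2.65 and 4.73 cycles. Rows with 4 decimals come first in the table and those with 3 decimals after them, and they are called here cards A and B, since the study used a set of A and B cards. The 8 card B miRNAs lay between 0.18 and 5.52 cycles, and they hold both ends of the ranking.

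**Figure D1:**
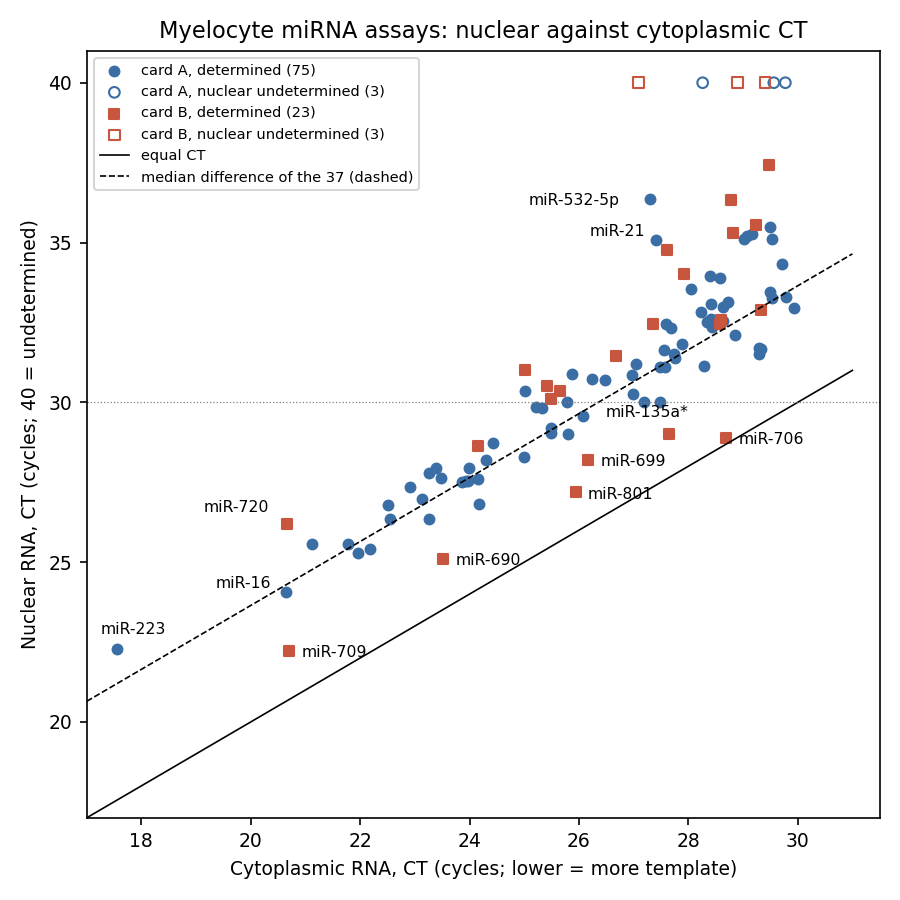
Nuclear CT (y axis, cycles) against cytoplasmic CT (x axis, cycles) of the 104 miRNAs in myelocytes, 1 sample per fraction, with cards A and B by colour and the 6 undetermined nuclear wells as open symbols at 40. All points lie above the line of equal CT, miR-706 is nearest to it and miR-709 is the lowest on the nuclear axis.

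At the nuclear end stood miR-706, with a CT of 28.7 in cytoplasmic, 28.9 in nuclear and 28.5 in whole cell RNA. All 3 samples were close to each other, and the ratio was 0.881. The error of a single well is not known, and whether 0.18 cycles differs from none was not tested. It was the only one of the 37 with less than a 2-fold difference.

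After miR-706 came miR-801 (CT of 25.9 in cytoplasmic and 27.2 in nuclear RNA, ratio 0.422) and miR-135a* (27.6 and 29.01, ratio 0.386). Next was miR-709, an abundant miRNA with a CT of 20.7 in cytoplasmic, 22.2 in nuclear and 21.0 in whole cell RNA (ratio 0.348). It had the lowest nuclear CT of all 104, just ahead of miR-223, and was the fourth lowest in cytoplasmic RNA. The fifth, miR-690, had a CT of 23.5 and 25.1 (ratio 0.331). It moved from rank 17 in cytoplasmic to rank 4 in nuclear RNA.

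These 5 were those of the 104 with a ratio over 0.3, where 11.2% of all assays under 30 in either fraction passed that limit. The limit corresponds to 0.1 after the division by 3 that the study's ratios carry. Below the limit, miR-699 followed at 2.04 cycles (26.2 and 28.2), and these 6 miRNAs are all on card B. Card and position in the ranking cannot be told apart for them. The other card B miRNAs under 30 in both fractions were at the opposite end: miR-149 at 4.49 cycles and miR-720, later recognised as a fragment of a transfer RNA, at 5.52 cycles (20.7 and 26.2). Entries named miR-801, miR-699 and miR-720 have been removed from miRBase, the registry of miRNA sequences, together with miR-805 (3.99 cycles). The 4 removed entries thus spanned 1.25 to 5.52 cycles and were no group of their own in this comparison.

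The study took 6 miRNAs forward from these cards as candidates for nuclear enrichment, and 5 of them are among the 104. The list was chosen on these samples and is not independent evidence. In myelocytes miR-706, miR-135a*, miR-709 and miR-690 held 4 of the 5 lowest differences, while miR-142-3p was at 3.32 cycles, with 20 of the 104 at a higher ratio. The remaining one, miR-467a*, had a CT over 30 in both fractions, 30.6 in cytoplasmic and 31.9 in nuclear RNA. In single RT-qPCR assays, the study found miR-706, miR-709 and miR-690 nuclear-enriched at every stage, set against cytoplasmic control miRNAs. It found miR-467a* enriched in LSK and promyelocytes alone, while miR-135a* and miR-142-3p did not appear enriched at any stage. Those assays were not examined here.

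**Figure D2:**
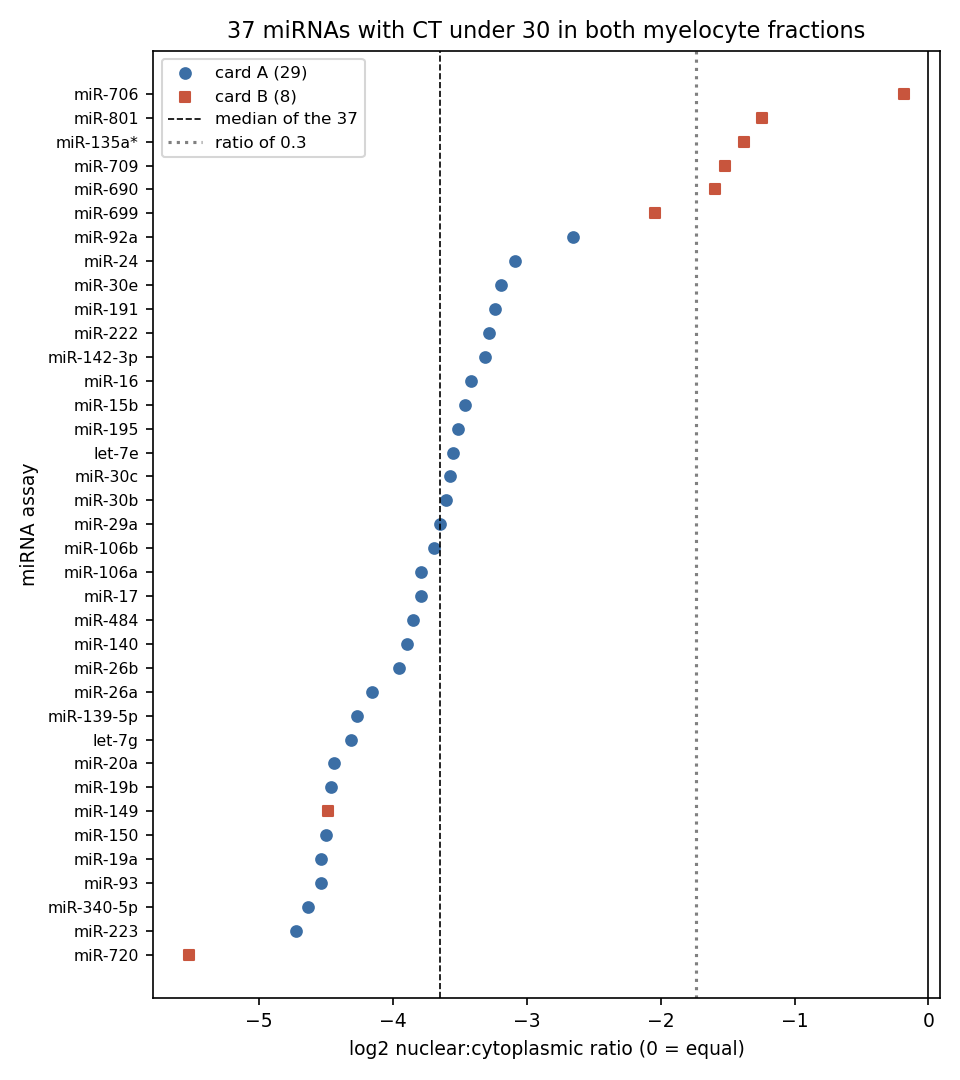
The log2 nuclear:cytoplasmic ratio (x axis, 0 for equal CT) of the 37 miRNAs under a CT of 30 in both myelocyte fractions (y axis), 1 sample each. The 6 card B miRNAs from miR-706 to miR-699 stand apart from a run of card A miRNAs between -2.65 and -4.73, and miR-720 is last.

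Among the 29 card A miRNAs under 30 in both fractions the order was tight. The oncogenic cluster member miR-92a had the highest ratio (0.159, CT of 24.2 in cytoplasmic and 26.8 in nuclear RNA), followed by miR-24 (0.118), miR-30e (0.109), miR-191 (0.106) and miR-222 (0.103). With the error of a well unknown, the order within this run has no check.

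At the cytoplasmic end, miR-223 had a difference of 4.73 cycles, 26.5-fold, the second largest of the 37. Its level nevertheless kept it second in nuclear RNA. Next to it were miR-340-5p (4.64 cycles), miR-93 (4.54), miR-19a (4.54) and miR-150 (4.50), a miRNA of mature lymphocytes. Their ratios fell between 0.0402 and 0.0443.

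The weight of single miRNAs shifted accordingly. If all assays amplify equally well, which these data cannot check, miR-223 made up 50.6% of the summed signal (2 raised to minus the CT) of the 104 in cytoplasmic RNA, 53.6% in whole cell RNA and 26.97% in nuclear RNA. The share of miR-709 was 5.73% in cytoplasmic, 4.11% in whole cell and 28.1% in nuclear RNA. The share of miR-690 went from 0.817% to 3.82%. For miR-16, which targets cell cycle and survival genes, the shares were 5.94% and 7.84%, and for miR-720 they fell from 5.91% to 1.82%.

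The 10 miRNAs with the lowest nuclear CT were miR-709, miR-223, miR-16, miR-690, miR-142-3p, miR-191, miR-19b, miR-17, miR-720 and miR-106a, from 22.2 to 26.3 cycles. Of these, 9 were also among the 10 lowest in cytoplasmic RNA, and the exception, miR-690, was replaced there by miR-139-5p (22.5 in cytoplasmic, 26.8 in nuclear RNA). Abundance in one fraction thus went with abundance in the other, apart from the miRNAs named above. From such a correlation the study proposed that low nuclear levels come mainly from carry-over of cytoplasmic miRNAs into the nuclear fraction. Carry-over was not tested here, so a nuclear CT or share need not be nuclear content. A straight line through the 98 miRNAs determined in both fractions had a slope of 1.095 cycles per cycle and an R squared of 0.806, which describes assays of 2 samples and not replicates. The miRNAs farthest below the line were miR-706 (-4.26 cycles), miR-135a* (-2.96) and miR-801 (-2.93), and those farthest above it miR-532-5p (4.76), miR-16* (3.43) and miR-21 (3.35).

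The 104 were then divided by their cytoplasmic CT. The 26 miRNAs with a cytoplasmic CT under 25 had a median of 3.82 cycles and ranged from 1.52 to 5.52. Between 25 and 28 the 39 miRNAs had a median of 4.22 and reached at least 12.91, and the 39 from 28 to 30 had a median of 4.59 and reached at least 11.74. Of these groups, 26, 10 and 1 (miR-706) had a nuclear CT under 30, so the rise of the medians rests on wells past that limit. Among the 37 the slope of nuclear on cytoplasmic CT was 0.74, but at a late cytoplasmic CT their nuclear limit admits small differences alone, so a direction with level cannot be read from either value. At a cytoplasmic CT of 28, the median difference alone puts the nuclear CT above 30. The study set that limit for at least 1 cell type and not for each sample. Just inside the limit were miR-532-3p (29.8) and miR-130b (29.9) in cytoplasmic RNA, and just outside it miR-425* (30.1) and miR-98 (30.2). On the nuclear axis miR-340-5p (29.9) was just inside and let-7i (30.01) and miR-744 (30.01) just outside.

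Of the miRNAs in the last set of sequences, 6 were undetermined in nuclear RNA, so that their differences are lower bounds: miR-10b (at least 10.23 cycles), miR-139-3p (10.44), miR-27a* (10.60), miR-877* (11.11), miR-425 (11.74) and miR-106b* (12.91). The last had a CT of 27.1 in cytoplasmic and 27.3 in whole cell RNA. Other stages did not all share this. Nuclear miR-877* had a CT of 30.3 in LSK, 31.4 in promyelocytes and 33.0 in granulocytes, and miR-425 was determined in promyelocytes (32.2) and granulocytes (30.5). By contrast miR-10b, a Hox cluster miRNA, and miR-139-3p were undetermined in nuclear RNA at all 4 stages. In LSK and promyelocytes, however, miR-139-3p was also undetermined in cytoplasmic and whole cell RNA. Cytoplasmic miR-10b had a CT of 28.2 in LSK, 34.2 in promyelocytes and 28.7 in granulocytes. Nuclear miR-106b* was determined in granulocytes alone (34.1).

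Among determined wells the largest differences were those of miR-532-5p (27.3 in cytoplasmic and 36.4 in nuclear RNA, 9.06 cycles), miR-16* (7.94) and miR-21 (27.4 and 35.1, 7.66 cycles), a miRNA induced in activated myeloid cells. All 3 rest on a nuclear CT over 35. Nuclear miR-21 had a CT of 32.2 in LSK, 32.3 in promyelocytes and 31.3 in granulocytes, so the myelocyte well was the highest of the 4.

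Groups of related miRNAs were described next, by family or cluster. The lists were chosen with earlier results known, and the median of all 104, 4.18 cycles, is the value to set them beside. Of 17 lists with at least 2 members among the 104, the marker lists of other cell types and of the neutrophil lineage left out, 6 had a median above it.

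The family of miR-15, miR-16 and miR-195, with the seed AGCAGCA, stayed close together. Of its members, miR-16, miR-15b and miR-195, all under 30 in both fractions, differed by 3.42, 3.46 and 3.52 cycles. Their cytoplasmic CT spanned 20.7 to 26.1, so the likeness held over a wide range of levels. The family's median over 5 was 3.52 cycles, with miR-15a, at 5.31, the exception at a nuclear CT of 33.9.

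The miR-30 family members, regulators of differentiation in many tissues, lay between 3.20 and 4.47 cycles, with a median of 3.60. The pairs miR-26a and miR-26b (4.16 and 3.95), miR-221 and miR-222 (3.93 and 3.28) and miR-29a and miR-29c (3.64 and 4.22) each stayed within a cycle of each other.

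The miR-17-92 cluster, transcribed as a single primary RNA and known to promote proliferation, had a median of 4.31 cycles over 6. Members of this cluster that share a seed were within a cycle of each other. The miR-19 pair (GUGCAAA) had 4.54 and 4.46 cycles, and within AAAGUGC miR-17 had 3.79 and miR-20a 4.44, while miR-18a had 4.17 and miR-92a (AUUGCAC) 2.65. The mature sequences of miR-92a and miR-19b are each encoded at 2 loci, on chromosomes 14 and X, so these values do not belong to the miR-17-92 transcript alone. In the related clusters miR-106a, miR-106b and miR-93 had 3.79, 3.70 and 4.54 cycles, miR-25 had 3.54 and miR-20b 5.56.

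The let-7 family, which rises with differentiation, ranged from 2.85 cycles for let-7d to 6.12 for let-7a. Only let-7e (3.55) and let-7g (4.31) had a nuclear CT under 30. The widest distance in the family came from wells above that limit, with let-7d at 31.1 and let-7a at 35.3 in nuclear RNA. Of the miR-23/24/27 clusters, miR-24 had 3.09 cycles, miR-27a 3.25 and miR-27b 6.09, the last with a nuclear CT of 35.1. Both miR-192 (5.51 cycles) and miR-194 (4.62) were over 30 in nuclear RNA.

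The miRNAs that regulate myeloid cells divided as well. Under 30 in both fractions were miR-142-3p (3.32 cycles) and miR-223 (4.73), whose difference from each other, 26.5-fold against 9.95-fold, has no replicate check. Over 30 in nuclear RNA were miR-155 (3.95), miR-142-5p (4.36), miR-146a (5.03) and miR-21 (7.66). Of these, miR-146a and miR-155 are regulators of inflammation. Of the stem and progenitor list, 2 miRNAs were under 30 in cytoplasmic RNA: miR-126-3p, at 28.4 in cytoplasmic and 32.6 in nuclear RNA (4.18 cycles), and miR-10b, undetermined in nuclear RNA. The cluster in an intron of Clcn5 also had 2 under 30, both arms of miR-532, at 3.50 and 9.06 cycles, and outside the limit miR-188-5p was at 31.2 in cytoplasmic and 31.7 in nuclear RNA.

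**Figure D3:**
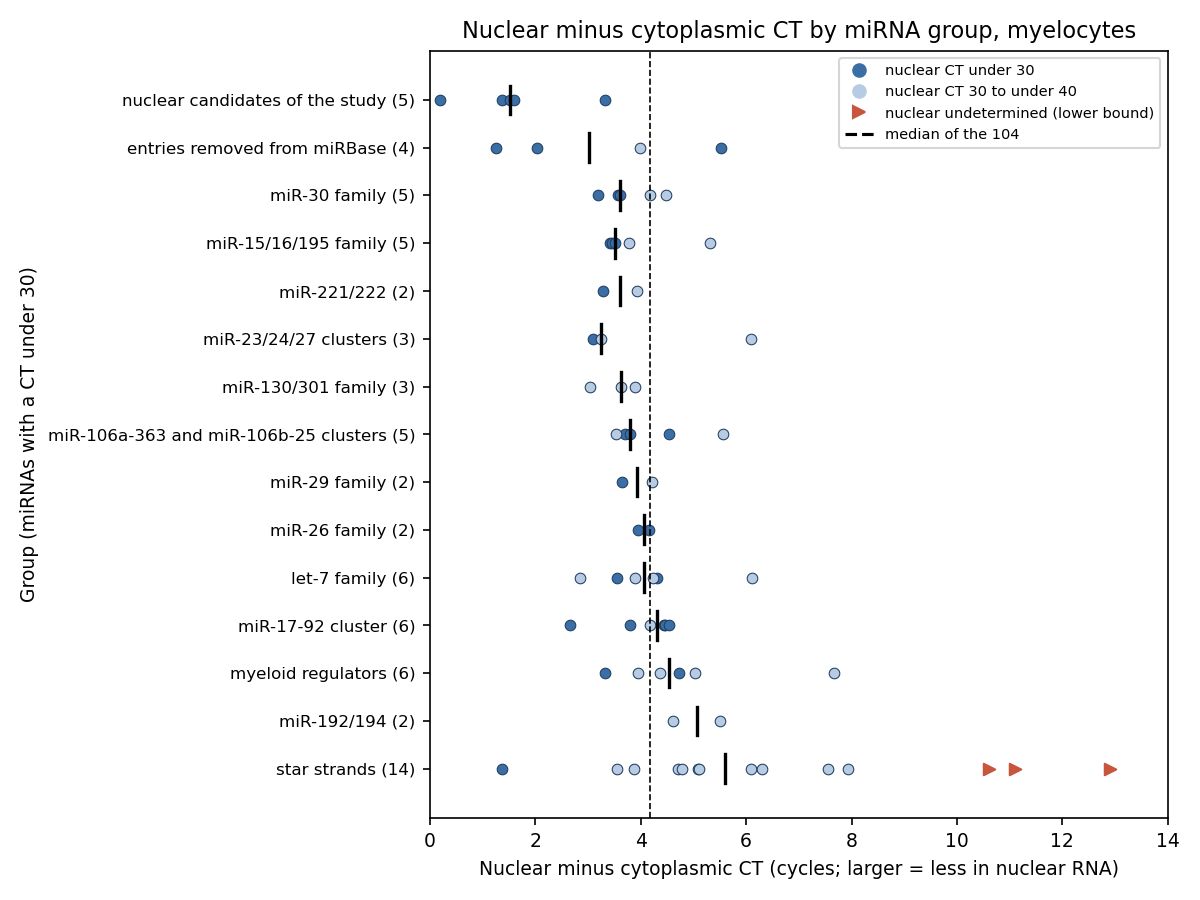
Nuclear minus cytoplasmic CT in myelocytes (x axis, cycles) by miRNA group (y axis, number of miRNAs among the 104 in brackets), 1 point per miRNA and a bar at each median. Medians of the plotted families run from 3.25 cycles for the miR-23/24/27 clusters to 5.06 for miR-192 with miR-194, around the dashed line at 4.18, and the star strands reach farthest to the right, 3 of them as lower bounds.

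Some mature sequences differ at 1 base, and a primer could read both. Among the matched miRNAs there were 8 such pairs, 2 of them under 30 in both fractions. The first was miR-106a and miR-17, with A10U counted from the 5′ end of miR-106a, both at 3.79 cycles. In the second, miR-19a and miR-19b, the change is U11C counted likewise in miR-19a, and the differences were 4.54 and 4.46 cycles. Whether each assay reads its own sequence was not tested. Pairs with a well above the limit were farther apart, up to 2.83 cycles for miR-27a and miR-27b.

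Both arms were among the 104 for 16 hairpins. The star arm, or the arm with the later cytoplasmic CT where none has a star name, had the larger difference in 11 and the smaller in 5, and in 13 pairs without an undetermined well it was larger in 8, by a median of 1.04 cycles over the 13. The star arms of miR-16 and miR-24-2 had 7.94 and 6.09 cycles, their partners 3.42 and 3.09. In the other direction miR-135a* (1.37 cycles) had a smaller difference than miR-135a (4.66, CT of 28.4 and 33.1). The sequence of miR-135a is also encoded in another hairpin, miR-135a-2, so its CT need not come from the same hairpin. The arms of miR-532, above, stood likewise, with the 3p arm the smaller. Most star arms are on card B and their partners on card A, and 1 of the 14 star strands had a nuclear CT under 30, so arm, card and level cannot be told apart. Over the 14 star strands the median was 5.598 cycles.

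Base composition went weakly with the difference. Across the 30 matched miRNAs under 30 in both fractions, with 27.3% to 63.6% G and C, Spearman's rho was -0.27. Those left out for lack of a sequence include miR-801, miR-709 and miR-699 near the nuclear end and miR-720 at the cytoplasmic end. All points come from the same 2 samples, and the value is a description.

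The whole cell sample gives a further reading of the same RNA species. The whole cell CT was nearer to the cytoplasmic than to the nuclear CT for 101 of the 104, with a median difference of -0.07 cycles from cytoplasmic RNA and quartiles of -0.32 and 0.13. It lay between the fractions for 39, below both for 63 and above both for 2. Within 1 cycle of the range of the fractions were 101 of 104.

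The 2 above both fractions were miR-801 and miR-699. In whole cell RNA miR-801 was at 28.8 against 25.9 in cytoplasmic and 27.2 in nuclear RNA, and miR-699 at 29.7 against 26.2 and 28.2. For both, the whole cell signal was thus below that of either fraction. Whole cell miR-690 (24.7) lay between its fractions, nearer to the nuclear value. In the opposite direction, miR-146a was at 24.4 in whole cell RNA, 1.44 cycles below its cytoplasmic CT, miR-130b was 0.93 cycles below and miR-142-3p 0.87 cycles below. For miR-706, miR-709 and miR-135a* the whole cell CT was within 0.5 cycles of the cytoplasmic CT.

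**Figure D4:**
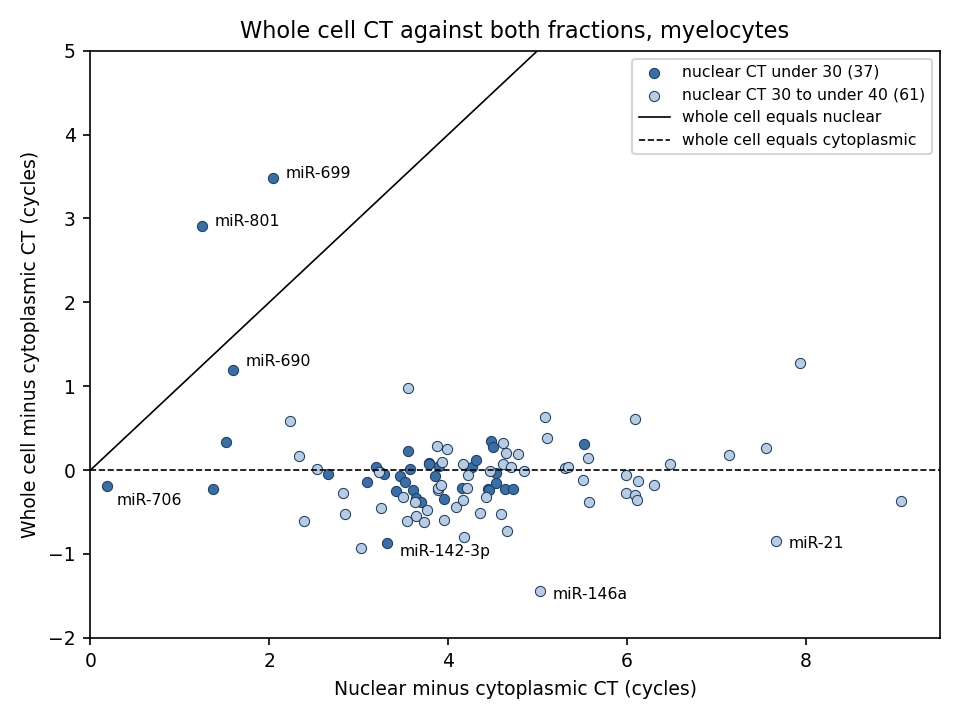
Whole cell minus cytoplasmic CT (y axis, cycles) against nuclear minus cytoplasmic CT (x axis, cycles) for the 98 miRNAs determined in nuclear RNA of myelocytes, 1 sample per axis value. Most points lie along the dashed line of equal whole cell and cytoplasmic CT, and miR-801 and miR-699 lie above the line where whole cell equals nuclear CT.

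Finally the ratio in myelocytes was set beside that of the other stages, each again with 1 sample per fraction. Of the 37 miRNAs under 30 in myelocyte nuclei, all were also under 30 in granulocyte nuclei, 32 in LSK nuclei and 30 in promyelocyte nuclei, and 29 were under 30 in all fraction samples. None was under 30 in the nuclei of myelocytes alone. The 8 that were not found throughout include miR-139-5p, whose nuclear CT from LSK to granulocytes was 32.1, 31.1, 26.8 and 24.5, and miR-149 (34.5, 31.3, 28.6 and 28.4). Both were lower in the later stages. A further 25 of the 104 were under 30 in the nuclei of another stage and not of myelocytes, among them miR-378 (28.04, 28.2, 30.1 and 28.9) and miR-805 (29.5, 29.1, 32.6 and 31.1), for which myelocytes had the highest CT of the 4.

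The median log2 ratio of the 29 miRNAs went from -3.91 in LSK to -2.67 in promyelocytes, then to -3.57 in myelocytes and to -2.52 in granulocytes. Most of the set was thus lower in myelocytes than in the stages just before and just after. The median difference was -1.16 from promyelocytes and -1.01 from granulocytes. The ratio was lower in myelocytes than in promyelocytes for 28 of 29 and lower than in granulocytes for 26 of 29, and against LSK for 11 of 29. The comparisons share the myelocyte samples, and a shift common to a sample cannot be told apart from a change in the cells. Nuclear RNA had a CT under 40 in 199 assays in myelocytes, the fewest of the 12 samples.

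Among the 87 miRNAs determined in all fraction samples, myelocytes had the lowest ratio of the 4 stages for 34 and the highest for 0. These counts follow in part from the rule, which asked for a myelocyte cytoplasmic CT under 30 while 87, 81 and 98 of the 104 had one in LSK, promyelocytes and granulocytes, and nothing is read from them. Among the 29 under 30 in all fraction samples myelocytes had the lowest for 8. Among the 87, LSK had the lowest for 50, and granulocytes the highest for 56. After each stage was centred on its median of the 29, myelocytes had the lowest for 32 of the 87 and the highest for 8.

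The miRNAs whose myelocyte ratio departed most from the median of the other 3 stages were miR-699 (by -1.83), let-7g (-1.78), let-7e (-1.57), miR-20a (-1.24) and miR-223 (-1.21). The median departure of the 29 was -0.93. In the other direction only miR-92a (0.02) was not lower, followed by miR-135a* (-0.13), miR-222 (-0.14), miR-29a (-0.31) and miR-30b (-0.35). Centred on the stage medians, miR-706 (-1.29) and miR-720 (-1.001) departed most downward and miR-92a (0.71) and miR-222 (0.69) most upward.

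From LSK to granulocytes miR-706 had log2 ratios of 0.77, 2.50, -0.18 and -1.01. After the study's division by 3 the first 3 became -0.81, 0.92 and -1.77, so the sign in LSK depends on this factor, and promyelocytes stood above 0 either way. Its nuclear CT went from 26.6 in promyelocytes to 28.9 in myelocytes, while its cytoplasmic CT went from 29.1 to 28.7. That of miR-709 was -0.50, 0.34, -1.52 and -0.45, and that of miR-690 -1.23, -0.18, -1.59 and -2.02. The ratio of miR-135a* hardly moved from LSK to myelocytes (-1.67, -1.24 and -1.37) and was higher in granulocytes (-0.46). Those of miR-142-3p (-3.62, -2.61, -3.32 and -1.23) and miR-223 (-4.59, -3.40, -4.73 and -3.52) both had their highest value of the first 3 stages in promyelocytes.

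**Figure D5:**
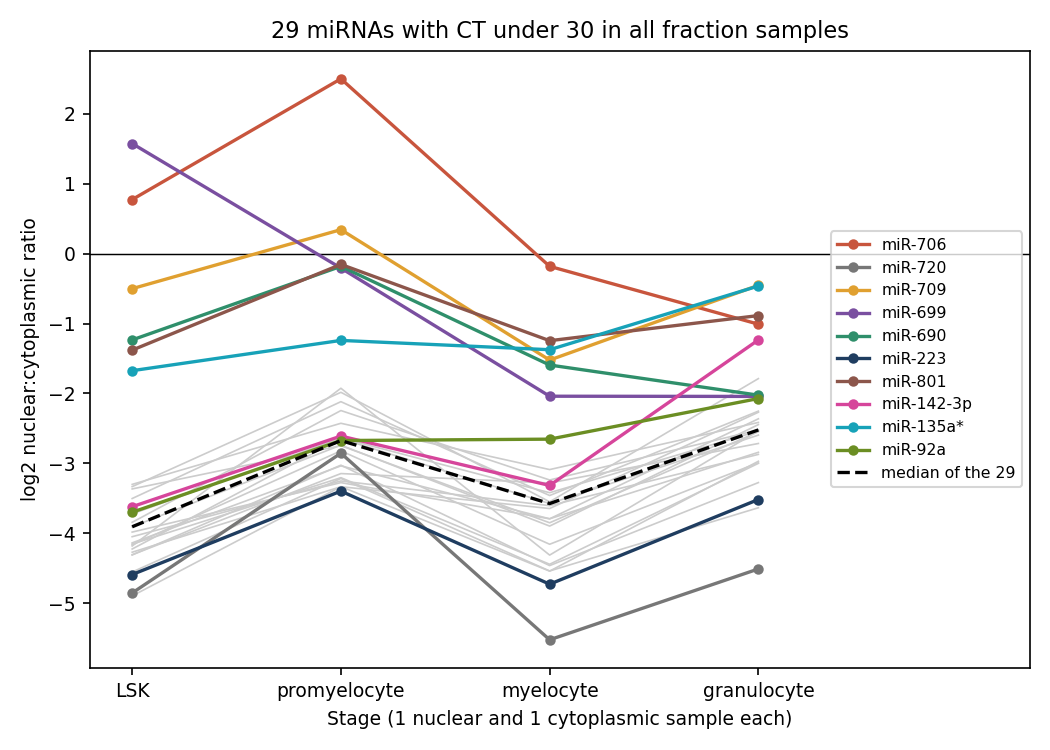
The log2 nuclear:cytoplasmic ratio (y axis) at each stage (x axis) of the 29 miRNAs under a CT of 30 in all fraction samples, 1 sample per fraction, with named miRNAs in colour, the others in grey and the median dashed. Most lines are lower at myelocytes, where the median is -3.57, than at promyelocytes and granulocytes, and miR-706 crosses 0 between promyelocytes and myelocytes.

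Of the 324 unnamed assays, 12 had a CT under 30 in either myelocyte fraction and 7 were higher in nuclear RNA, which none of the 104 was, and they stayed so after division by 3. The 6 of them measured in all samples were 5.29 to 9.20 times higher in nuclear RNA, with a nuclear CT of 19.8 to 25.5. The whole cell CT lay between the fractions for 5 of these 6. They carry no name here, and whether the 7 read miRNAs or control RNAs was not tested. Beside the miRNAs of its cards the study plotted a snoRNA as nuclear control and Y1 RNA as cytoplasmic control.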

How the data were processed

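The CT values were read by TLDA RT-qPCR on TaqMan rodent A and B cards from 100 ng of RNA per sample, per the labels. The authors used SDS and RQ Manager to call them, and the deposited values are raw and not normalized, with 40 for an undetermined well. Assays were named where their 8 cytoplasmic and nuclear CT equal, within 0.0005 cycles, those the study printed beside a miRNA's name (246), or else where their whole cell differences between stages, after a straight line per pair of stages fitted on 106 assays already named (slope 1.71), match its printed fold values within 0.002 (23). Only names were taken from these lists. The nuclear:cytoplasmic ratio is 2 raised to the cytoplasmic minus nuclear CT, with no divisor. The members and lists were chosen with earlier results of these data known. Named miRNAs are the 10 lowest in CT in each fraction, the 10 highest and 10 lowest in ratio under 30 in both, the undetermined ones, the 5 departing most from other stages in each direction, the 5 whole cell values farthest outside the fractions, and members of the lists. Others were chosen after their values were seen. No test was made, since each group is 1 sample. The procedure was tested on simulated data. Values were computed with pandas 2.3.3 and numpy 2.4.6 in Python 3.11.15. The alternatives are given in the closing section.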

Additional observations from a re-analysis of the deposited data

Results flagged for a closer look

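For 6 miRNAs the fractions stood in the opposite order in myelocytes and in another stage, 1 sample per fraction each, and the difference was not tested. After the study's division by 3, a check chosen after seeing the data, this held for 3 of the 6. On the log2 scale of the nuclear:cytoplasmic ratio, miR-706 was at -0.18 in myelocytes against 0.77 in LSK and 2.50 in promyelocytes, which became -0.81 and 0.92 after the division. For miR-709 it was -1.52 against 0.34 in promyelocytes, and for miR-699 it was -2.04 against 1.57 in LSK, and these became -1.24 and -0.01. For miR-494 it was -3.92 against 0.12 in promyelocytes, which became -1.47. For miR-532-3p it was -3.50 against at least 7.72 in LSK, and for miR-574-3p it was -4.85 against at least 5.20 in LSK. The cytoplasmic LSK wells of both were undetermined, their nuclear CT was 32.3 and 34.8, and their whole cell CT was lower than either, at 30.04 and 29.4.

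Of the unnamed assays, 7 were at least 2-fold higher in nuclear than in cytoplasmic RNA of myelocytes, which none of the 104 miRNAs was. Whether these 7 read miRNAs or control RNAs was not tested. A further 14 named miRNAs, all over 30 in both fractions, had the lower CT in nuclear RNA (32.4 to 38.2), 8 of them with an undetermined cytoplasmic well. In assays 376, 377, 379, 591, 592 and 593 the nuclear minus cytoplasmic CT was -3.14, -3.11, -3.20, -2.40, -2.43 and -2.96 cycles. In assay 279 it was -24.15 or lower, from a CT of 15.9 in nuclear RNA of myelocytes, lower than that of any of the 104 there, while the other 11 samples were undetermined.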

How the results depend on the processing

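No paired analysis was possible because the comparison within myelocytes has 1 sample per fraction, and for the same reason no sample could be left out. Pairing the fractions over the 4 stages would treat stages as replicates and was not done. A count was taken as moved beyond 1.5 times and a median, slope or R squared beyond 0.1.

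The 104 miRNAs became 65 at a CT limit of 28, 37 with both fractions under 30 and 26 on card B alone. Of these, 65, 36 and 25 were at least 2-fold and 51, 25 and 20 at least 10-fold higher in cytoplasmic RNA. On card B, 8 had a nuclear CT under 30. None was higher in nuclear RNA except with unnamed assays included, where 7 were. The median difference was 3.95 cycles at a limit of 28, 3.64 with both under 30, 4.04 over all assays, 4.02 on card A, 4.93 on card B and 5.76 after division by 3. The 5 ratios over 0.3 became 9 at a limit of 32, 13 over all assays, 0 on card A alone, and 0 after division by 3 with the limit kept at 0.3, by construction. The slope of 1.095 became 0.74 with both under 30, 1.22 with undetermined wells at 40 and 1.24 on card B, and the R squared 0.704 and 0.691 for the last 2. The whole cell CT lay between the fractions for 87 with 0.5 cycles allowed, for 101 with 1 cycle (added after seeing the data) and for 13 of the 37. The 25 of 37 at least 10-fold higher were counted again after seeing the data, with the same value as the planned count. Myelocytes had the lowest ratio for 8 of the 29 under 30 throughout, and the highest for 8 of the 87 determined throughout after centring.

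Centred on the median of the 37, the log2 ratio went from at least 2-fold lower to at least 2-fold higher in nuclear RNA for miR-801 (2.40), miR-135a* (2.27), miR-709 (2.12), miR-690 (2.05) and miR-699 (1.61), by construction.

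A single well per value leaves the error of a CT unknown, and a nuclear CT above 30 in myelocytes lies past the limit as applied here. The study asked for that limit to be met in any of its cell types, not in each sample.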
